A study of Mus musculus with 5 samples.

Results

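The 32 genes described here make up the unfolded protein response and the chaperone machinery of the endoplasmic reticulum (ER). They were taken from a list of gene names, and no threshold on their values was applied. All 32 are rows of each of the 3 count tables, which hold 18307 genes for liver on the ApoE background, 24309 for aorta and 22194 for liver with no background named. By role they are 11 chaperones and cochaperones, 4 disulfide isomerases, 3 stress sensors, 3 transcription factors, 4 ATF4 or CHOP targets, 5 degradation genes and 2 translocon genes.

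The ER folds proteins that are to be secreted or placed in membranes, and the liver secretes most of the proteins of the plasma. When unfolded proteins accumulate in the ER, the chaperone BiP (Hspa5) is drawn to them, and 3 membrane sensors become active. IRE1 (Ern1) splices the mRNA of Xbp1 into its active form, ATF6 is cut to free a transcription factor, and PERK (Eif2ak3) phosphorylates eIF2α, which slows translation but favours that of Atf4. Their targets are chaperones, isomerases and the machinery that returns misfolded proteins to the cytosol for degradation, and under lasting stress the factor CHOP (Ddit3).

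Droplet-based counts of RNA from single cells came from 5 mouse libraries, each of which is the only library of its group. They are a liver and an aorta labelled DKO with ApoE, a liver and an aorta labelled WT with ApoE, and a further liver labelled WT for which no background is named. The series title names epsins of the liver, endocytic adaptor proteins encoded by Epn1, Epn2 and Epn3. The labels do not spell out DKO, do not name a Cre driver, age or sex, and mention 3 mice without tying them to libraries.

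Depth, as unique molecular identifiers (UMIs) that each tag 1 RNA molecule, ran from 1883798 UMIs in 616 cells of the liver with no background named to 10999072 UMIs in 4331 cells of the liver labelled DKO, and the median cell held between 1552 and 2771.5 UMIs. Pairs of libraries shared 0 to 7 cell barcodes. Epn1 and Epn2 were not lower in hepatocytes of the library labelled DKO: the DKO/WT ratios of their counts per 1000000 UMIs (CPM) were 1.21 (95% interval 1.08 to 1.36) for Epn1 and 1.13 (0.805 to 1.59) for Epn2. Reads at the 3′ end may lie outside a deleted part, so these ratios do not check the label. Apoe stood at 32.8 CPM in hepatocytes of the liver labelled DKO and 36.3 CPM in those of the ApoE liver labelled WT. It stood at 68.8 CPM, from 62 UMIs, in those with no background named, where Alb stood at 34573 CPM. Apoe was thus low in hepatocytes of every liver library, and its levels do not check the ApoE label either. Libraries are therefore called by their labels throughout. All intervals are at 95% and cover counting error only. With 1 library per group, no difference has a replicate check and none was tested.

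Many ER chaperone genes share a promoter element, the ER stress response element (ERSE), in which CCAAT and CCACG stand 9 bases apart. In RefSeq windows of GRCm38.p6 that run from 250 bases before to 50 bases after a gene's start, the element (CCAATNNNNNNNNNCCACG, read on both strands) was present for 9 of the 29 members with a window, or 31.0%, and for 37 of all 27025 genes, or 0.137%. The members were Hspa5, Hsp90b1, Calr, Canx, Creld2, Derl3, Dnajc3, Pdia6 and Syvn1. ERSE-II, in which ATTGG and CCACG stand 1 base apart, was present for Dnajb11 and Herpud1 and for 0.0444% of all genes. The 2 motifs share CCACG and can overlap, but no member had both in its window. The XBP1/ATF6 core TGACGTGG occurred in no member's window (0.714% of all genes), and the C/EBP-ATF element TGATGCAAT occurred in none (0.222% of all genes). A match is a description of letters, not of binding, and a window with no match says only that these letters are not in it. The sites below, with the motif in capitals and 20 flanking bases on each side for ERSE and 9 for ERSE-II, are given because they join members whose levels are followed below. They lie at chr2:34772005-34772063 (Hspa5, plus strand), chr10:86705618-86705676 and chr10:86705513-86705571 (Hsp90b1, minus strand), chr15:88819500-88819558 (Creld2, plus), chr10:75893222-75893280 (Derl3, plus), chr11:50325780-50325838 (Canx, minus), chr8:94386368-94386396 (Herpud1, plus) and chr16:22857843-22857871 (Dnajb11, plus). Each is written 5′ to 3′ on the strand of its gene, so that a motif on the opposite strand reads CGTGG first.
Hspa5: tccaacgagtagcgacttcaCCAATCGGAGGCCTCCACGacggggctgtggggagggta
Hsp90b1, first site: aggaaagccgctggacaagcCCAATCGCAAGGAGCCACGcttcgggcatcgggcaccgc
Hsp90b1, second site: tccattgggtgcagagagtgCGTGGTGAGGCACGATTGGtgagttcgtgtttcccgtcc
Creld2: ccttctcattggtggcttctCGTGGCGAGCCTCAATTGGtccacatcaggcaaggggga
Derl3: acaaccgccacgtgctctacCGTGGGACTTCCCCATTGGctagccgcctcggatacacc
Canx: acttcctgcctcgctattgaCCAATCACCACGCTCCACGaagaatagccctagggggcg
Herpud1: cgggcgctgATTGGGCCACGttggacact
Dnajb11: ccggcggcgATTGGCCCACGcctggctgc

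The 250 bases before the start of Hspa5 (chr2:34771840-34772089, plus strand) are shown in full, with the one ERSE of exact spacing in capitals, because other CCAAT and ATTGG pentamers stand around it.
Hspa5, 250 bases: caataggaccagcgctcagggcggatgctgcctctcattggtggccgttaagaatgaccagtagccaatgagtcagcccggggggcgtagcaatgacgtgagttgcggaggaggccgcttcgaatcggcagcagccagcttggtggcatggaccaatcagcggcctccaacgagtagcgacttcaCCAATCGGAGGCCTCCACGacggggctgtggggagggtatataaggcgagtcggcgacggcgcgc

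In liver, the first comparison was between the libraries labelled DKO and WT on the ApoE background, in hepatocytes, the main parenchymal cells of the organ. The class comprised clusters 0 to 8 and 13 of the authors' clustering. It held 3213 cells and 9161442 UMIs labelled DKO, and 4015 cells and 8769666 UMIs labelled WT. The 32 members together took 4932 CPM in the library labelled DKO and 4641 CPM in that labelled WT. A gene was counted as higher or lower where the ratio passed 1.3-fold and at least 100 UMIs were summed over both libraries. Of the 28 members with that many UMIs, 4 were higher in the library labelled DKO, where 8.1% of all 8282 genes with as many UMIs were. None was lower, where 8.04% of all genes were. Ratios lay above 1 for 19 members and below 1 for 9. The median log2 ratio was 0.10 over the members and 0.00 over all genes. The counting interval lay above 1 for 13 members, below 1 for 4 and included 1 for 11.

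Among the chaperones, Hyou1 encodes an ER member of the Hsp70 family that acts as a nucleotide exchange factor for BiP. It stood at 43.6 CPM in the library labelled DKO and 28.7 CPM in that labelled WT, a ratio of 1.52 (1.29 to 1.78). Sdf2l1, part of an ER chaperone complex that assists BiP, stood at 20.2 CPM labelled DKO and 15.3 CPM labelled WT, a ratio of 1.32 (1.05 to 1.66). Dnajb11, a J-domain cochaperone of BiP, lay just under the threshold, with 75.4 CPM labelled DKO, 58.0 CPM labelled WT and a ratio of 1.2995 (1.16 to 1.46). BiP itself differed less. Hspa5 had 412 CPM in the library labelled DKO and 364 CPM in that labelled WT, a ratio of 1.13 (1.08 to 1.19). Hsp90b1, the ER form of Hsp90, had 797 CPM labelled DKO and 760 CPM labelled WT, a ratio of 1.05. Ratios of the calcium-binding lectin chaperones were 1.11 for Calr and 0.9995 for Canx. Manf, a secreted ER protein that binds BiP, had the lowest ratio of the members with at least 100 UMIs, 0.783 (0.703 to 0.872), with 67.8 CPM labelled DKO and 86.6 CPM labelled WT. The J protein Dnajb9, which restrains IRE1, also lay on the low side, with 68.4 CPM labelled DKO, 78.4 CPM labelled WT and a ratio of 0.872 (0.782 to 0.974).

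The isomerases form and rearrange disulfide bonds. Pdia4 had the highest ratio of the members with at least 100 UMIs, with 112 CPM in the library labelled DKO and 63.5 CPM in that labelled WT, a ratio of 1.76 (1.59 to 1.96). P4hb, the classical protein disulfide isomerase, had 430 CPM labelled DKO and 347 CPM labelled WT, a ratio of 1.24 (1.18 to 1.299). Ratios were 1.07 for Pdia3 and 0.917 for Pdia6. The isomerases thus spread on both sides of 1, as the chaperones did.

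Neither the sensors nor their factors passed 1.3-fold. Ern1 had 70.6 CPM in the library labelled DKO and 78.4 CPM in that labelled WT (0.9002, 0.807 to 1.004). Atf6 had 89.5 CPM labelled DKO and 88.1 CPM labelled WT (1.02, 0.919 to 1.12). Eif2ak3 was sparse, with 7.20 CPM labelled DKO and 7.87 CPM labelled WT (0.916, 0.643 to 1.302). All 3 intervals included 1. Xbp1 had 111 CPM labelled DKO and 103 CPM labelled WT (1.08, 0.982 to 1.18), and counts at the 3′ end cannot tell its spliced from its unspliced form. Atf4 had 35.5 CPM labelled DKO and 29.3 CPM labelled WT (1.21, 1.03 to 1.43). Ddit3 had 6.88 CPM labelled DKO and 7.53 CPM labelled WT (0.914, 0.637 to 1.31). Ppp1r15a (GADD34), the phosphatase subunit that reverses eIF2α phosphorylation, rested on 72 UMIs labelled DKO and 47 labelled WT, or 7.86 and 5.36 CPM in the same order, a ratio of 1.47 (1.002 to 2.17). The immediate early genes Fos and Jun lay on the same side, at 1.18 and 1.29, and their part in it was not tested. The amino acid and CHOP pathway genes Trib3, Asns and Chac1 were below 100 UMIs, as was the degradation gene Derl3.

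Of the degradation genes, Sel1l, the adaptor of the ubiquitin ligase encoded by Syvn1, had 111 CPM labelled DKO and 93.5 CPM labelled WT (1.18, 1.08 to 1.298). Herpud1, a scaffold of the same complex, had 582 CPM labelled DKO and 601 CPM labelled WT (0.968). Ratios were 1.04 for Syvn1 and 1.03 for Edem1, which selects misfolded glycoproteins. Of the translocon genes, the ratio was 0.927 for Sec61b, a subunit of the channel, and 1.07 for Ssr1, a subunit of the translocon-associated complex. None of the 8 members with an ERSE and at least 100 UMIs passed 1.3-fold, their ratios lying between 0.917 and 1.13. Of the 17 with a window, no ERSE and as many UMIs, 3 were higher. The median ratio was 1.08 with an ERSE and 1.07 without, so these ratios do not set the ERSE members apart. The members past the threshold were Pdia4, Hyou1, Ppp1r15a and Sdf2l1, of which Hyou1 had no window in the promoter table and the other 3 had none of the 4 motifs in theirs.

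**Figure D1:**
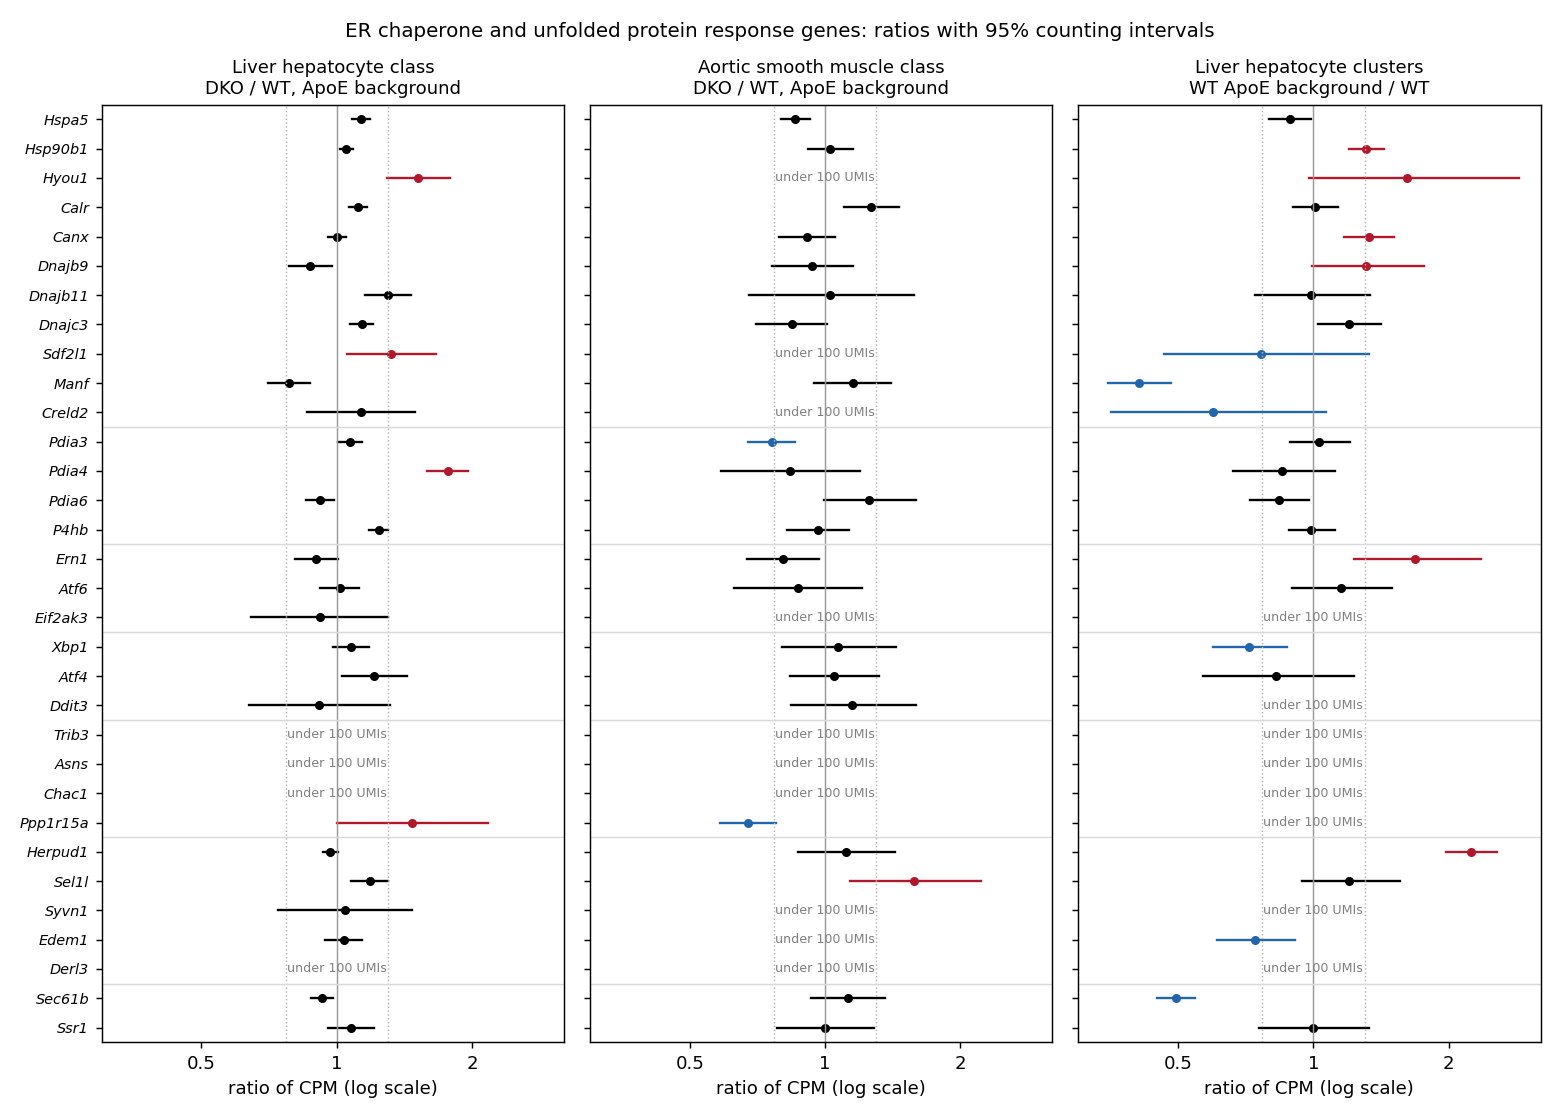
Ratio of CPM of each member (rows, grouped by role) in the 3 comparisons, on a log axis, the library named first in each panel title over the second. Points are single ratios with 95% intervals of counting error, dotted lines mark 1.3-fold, red and blue points are past it upward and downward, and members under 100 summed UMIs are marked as such; of the members plotted for hepatocytes, Pdia4 (1.76) and Hyou1 (1.52) stand farthest above 1 and Manf (0.783) farthest below.

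Other measures differed between the hepatocytes of these libraries. Hepatocyte markers (6 genes) summed to 57829 CPM in the library labelled DKO and 69609 CPM in that labelled WT, with 1 of 6 higher labelled DKO. Mitochondrially encoded genes took 11.4% of UMIs in the library labelled DKO and 7.98% in that labelled WT. Gm42418, a gene that overlaps ribosomal RNA sequence, took 38878 CPM labelled DKO and 23346 CPM labelled WT. The erythroid marker list (4 genes) summed to 112 CPM labelled DKO and 13.7 CPM labelled WT, and the pancreatic acinar list (8 genes) to 15.6 CPM labelled DKO and 97.6 CPM labelled WT. The plasma cell list (6 genes) was at 118 CPM labelled DKO and 122 CPM labelled WT, of which the member Xbp1 made up 111 CPM labelled DKO and 103 CPM labelled WT. The part of these measures in the ratios was not tested.

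In liver, 9 hepatocyte clusters held at least 50 cells of both libraries, and the ratio of Pdia4 lay above 1 in each of the 6 where it had at least 100 UMIs, from 1.17 in cluster 1 to 2.14 in cluster 4. P4hb lay above 1 in 7 of 9 clusters, from 0.90 in cluster 2 to 1.60 in cluster 0. Hspa5 also lay above 1 in 7 of 9, from 0.87 in cluster 6 to 1.32 in cluster 7. Hyou1 reached 100 UMIs in 2 clusters only, with ratios of 1.27 and 1.35 whose intervals included 1. On the low side, Ern1 lay below 1 in all 5 clusters with enough UMIs, from 0.65 in cluster 5 to 0.94 in cluster 4. Dnajb9 did so in 7 of 8, and Manf in 6 of 8, from 0.60 in cluster 2 to 1.06 in cluster 7. Clusters of 1 library share its depth and preparation and are not replicates. No share of all genes is given for these counts of clusters, so they are not read as particular to the members. The summed members ranged from 0.902 (0.859 to 0.946) in cluster 2 to 1.14 (1.08 to 1.19) in cluster 0. In cluster 2, Gm42418 took 164033 CPM of the total labelled DKO and 40411 CPM of that labelled WT. In cluster 6 it took 127738 and 39590 CPM in the same order. Its part in the low ratios of these clusters was not tested. Outside hepatocytes the summed members lay below 1 in each of the 3 other clusters with enough cells. T cells of cluster 9 had 2711 CPM in the library labelled DKO and 3462 CPM in that labelled WT, a ratio of 0.783 (0.721 to 0.851). The ratio was 0.881 (0.774 to 1.002) in endothelial cells and 0.960 (0.864 to 1.07) in Kupffer cells. The totals of these ratios include Gm42418. It took 104154 CPM labelled DKO and 26580 CPM labelled WT in the T cells. In endothelial cells it took 116652 and 40174 CPM, and in Kupffer cells 134715 and 36232 CPM, in the same order. Its part in the 3 ratios and their sides of 1 was not tested. Albumin RNA in those T cells, which do not make it, was at 12130 CPM labelled DKO and 25191 CPM labelled WT, and its part in that difference was not tested.

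**Figure D2:**
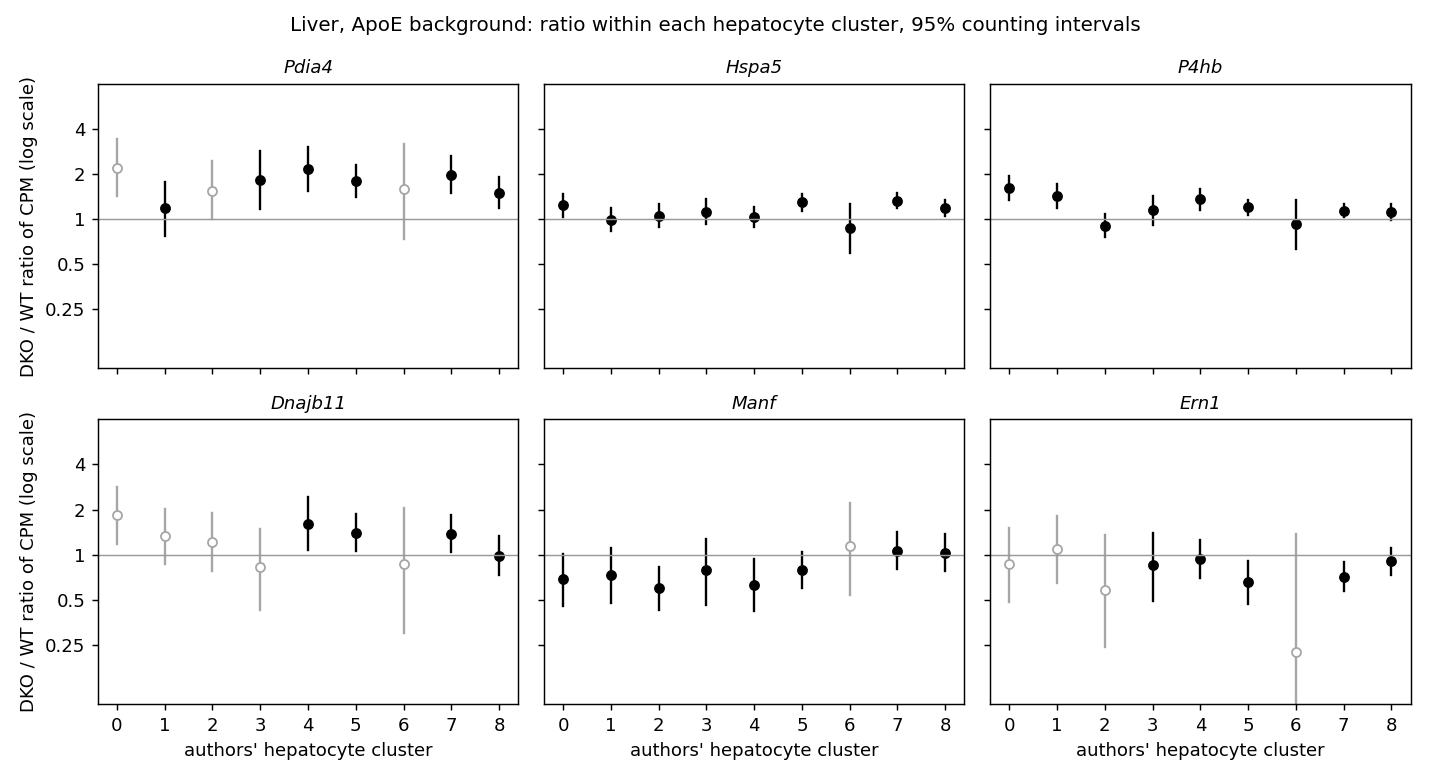
DKO/WT ratio of CPM (log axis) of 6 members in each hepatocyte cluster with at least 50 cells of both libraries, with 95% intervals of counting error; open grey points rest on under 100 summed UMIs. Filled points of Pdia4 lie above 1 in all 6 clusters and those of Ern1 below 1 in all 5. The clusters come from the same libraries and are not replicates.

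Lists of related genes that are not members were also counted. Of all 8282 genes with enough UMIs, 4151 had ratios above 1 and 4131 below, and 8.1% were at least 1.3-fold higher and 8.04% lower. The lists are short, and their counts are a description. Of 19 amino acid and stress response targets of ATF4 with enough UMIs, 15 had ratios above 1 and 4 below, with a median log2 ratio of 0.16. Of these, 3 were at least 1.3-fold higher in the library labelled DKO, among them the ATF4-family factor Atf5 (89.2 CPM labelled DKO, 53.4 CPM labelled WT, ratio 1.67) and the asparaginyl-tRNA synthetase Nars (1.32). One was lower, the amino acid transporter subunit Slc3a2 (0.745). Atf3, another stress-induced factor, was at 0.902. Of 21 translocon, signal peptidase and oligosaccharyl transferase genes, 5 lay above 1 and 16 below, with a median log2 ratio of -0.12. In that list the channel subunit Sec61a1 (1.43) was higher, and the transferase subunit Dad1 (0.637) and the signal peptidase subunit Spcs2 (0.663) were among 3 that were lower. None of 19 further degradation genes passed the threshold in either direction. They ranged from 0.778 for Ufd1 to 1.21 for Erlin1. Of 22 redox and other folding factors, the thioredoxin-domain isomerase Txndc5 alone was past it (1.34), followed by Pdia5 (1.28), and the lowest were Cnpy2 (0.774) and Txndc11 (0.791). Of 15 other sensors and regulators, the kinase of eIF2α Eif2ak2 was higher (1.38) and the cell death effector Bax lower (0.744).

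Across cell types of the ApoE liver, with both libraries pooled, the 32 members together were highest in cells the authors call B cells (6915 CPM). They followed at 4765 CPM in hepatocytes, 4353 CPM in Kupffer cells, 4136 CPM in endothelial cells, 2891 CPM in T cells and 2807 CPM in neutrophils. These levels are a description, since the authors' clusters were formed from the same counts. The high value for B cells came from 1 of their 2 clusters. Cluster 17, with 14 cells labelled DKO and 21 labelled WT, gave 19919 CPM (19222 to 20636), while cluster 11 gave 3022 CPM.

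Cluster 17 carried the plasma cell marker list, which includes the member Xbp1, at 74967 CPM, against 1420 CPM in cluster 11. Plasma cells secrete antibody and are known for an expanded ER that depends on XBP1. The cluster has 35 cells, 154522 UMIs and a median of 4338 UMIs per cell, and is smaller than the 50 cells asked of other classes here. Albumin stood at 10432 CPM in it, so that RNA of hepatocytes was present. Against the hepatocyte class, 28 of 32 members were higher in cluster 17, 25 of them by at least 2-fold and 12 by at least 5-fold, with a median ratio of 4.503. Of the 28 members with at least 100 UMIs over both, 25 were higher, 22 by at least 2-fold and 10 by at least 5-fold. Of all 8342 genes with as many UMIs, 38.5% were higher, 17.2% by at least 2-fold and 3.34% by at least 5-fold, with a median ratio of 0.717. The count was 29 in the cells labelled DKO alone and 28 in those labelled WT alone, and the summed level was 15741 CPM labelled DKO and 21930 CPM labelled WT.

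The degradation gene Derl3 showed the widest gap, with 324 CPM in cluster 17 and 1.73 CPM in the hepatocyte class, a ratio of 187 (117 to 303) from 50 and 31 UMIs in that order. Creld2, an ER protein with disulfide isomerase-like activity, had 401 CPM in cluster 17 and 12.1 CPM in hepatocytes, a ratio of 33.3. The sensor Eif2ak3 had 188 CPM in cluster 17 and 7.53 CPM in hepatocytes (24.9). Sdf2l1 had 311 CPM in cluster 17 and 17.8 CPM in hepatocytes (17.5), and Manf had 1145.5 CPM in cluster 17 and 77.0 CPM in hepatocytes (14.9). The abundant chaperones were spaced less widely. Hspa5 had 2886 CPM in cluster 17 and 389 CPM in hepatocytes (7.43), and Hsp90b1 had 5410 CPM in cluster 17 and 779 CPM in hepatocytes (6.95). Pdia4 was at 751 CPM in cluster 17 and 88.3 CPM in hepatocytes (8.503), and Atf6 at 485 and 88.8 CPM in the same order (5.46). Xbp1, itself one of the list that names the cells, had 809 CPM in cluster 17 and 107 CPM in hepatocytes. Canx (0.693) and P4hb (0.648) were lower in cluster 17 than in hepatocytes. At least 2-fold higher in cluster 17 were 7 of the 9 members with an ERSE and 15 of the 20 with a window and none. The count thus does not set the ERSE members apart. Their median ratio was 6.54, against 3.98 for those with none, with no UMI minimum, and this difference was not tested.

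**Figure D3:**
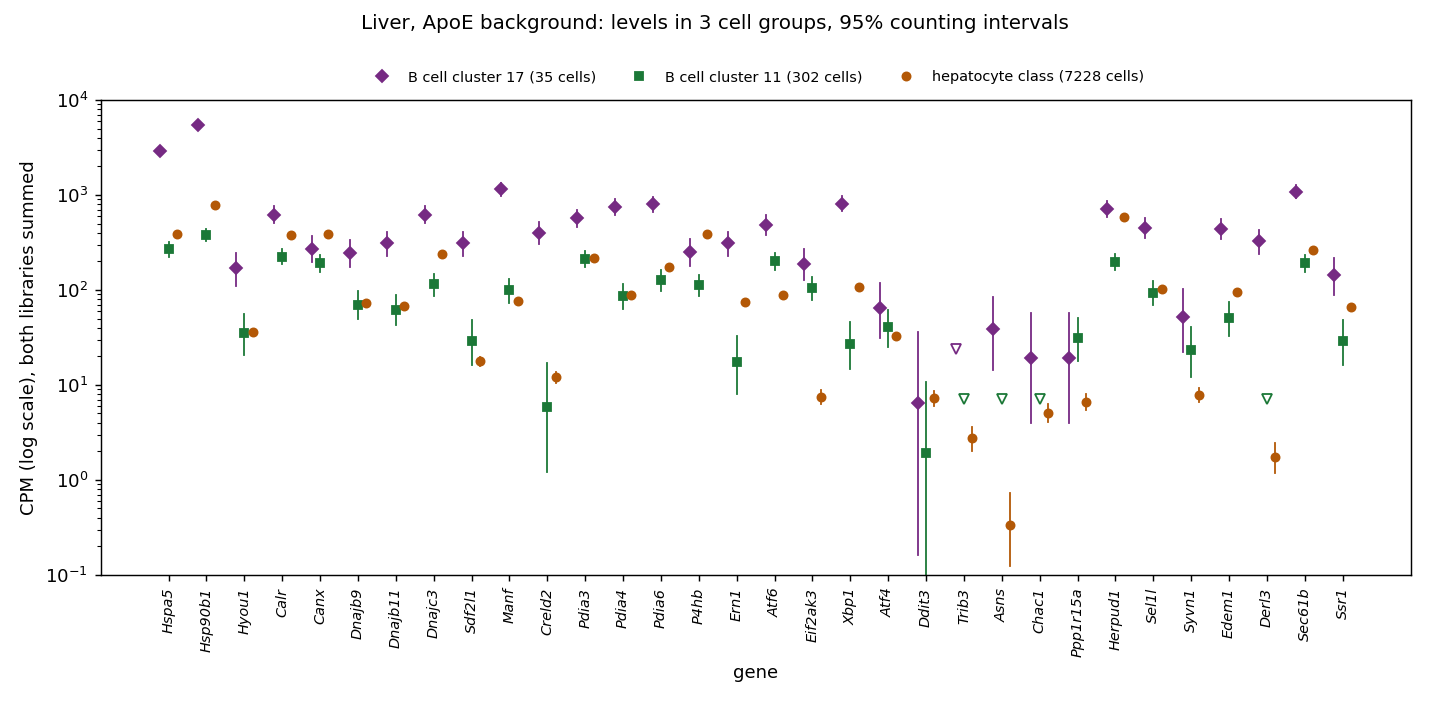
CPM of each member (log axis) in liver cluster 17 (diamonds), B-cell cluster 11 (squares) and the hepatocyte class (circles), both libraries summed, with 95% intervals of counting error; open triangles mark the upper interval limit where a group had 0 UMIs. Diamonds stand highest for most members, while Canx and P4hb lie below the hepatocyte class.

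This cluster sets the comparison of the B-cell label between libraries. Over all cells so labelled, the summed members were at 4242 CPM in 285 cells labelled DKO and 14407 CPM in 52 cells labelled WT, a ratio of 0.294. Without cluster 17 the ratio was 0.838 (0.732 to 0.963), with 2943 CPM in 271 cells labelled DKO and 3512 CPM in 31 cells labelled WT. In these cells Gm42418 took 114516 CPM labelled DKO and 31385 CPM labelled WT, and its part in the ratio was not tested. Cluster 17 made up 14 of the 285 cells labelled DKO and 21 of the 52 labelled WT.

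Cluster 17 aside, single members departed from the sum among the liver clusters of at least 50 cells. Eif2ak3 was at 105 CPM (78.6 to 136.5) in cluster 11 and 42.6 CPM in T cells, and lay between 3.7 and 12.3 CPM in hepatocyte clusters 0 to 8, with 0 UMIs in the small cluster 13. In cluster 11 it was at 85.6 CPM labelled DKO and 222 CPM labelled WT. Atf6 was at 200 CPM in the same cluster 11 and 141 CPM in Kupffer cells, with intervals that overlapped. Xbp1 ran the opposite way, with 27.1 CPM in cluster 11 and 32.2 CPM in T cells, against 83 to 127 CPM in hepatocyte clusters. P4hb was at 112 CPM in T cells and 502 CPM in cluster 7, and Herpud1 at 179 CPM in T cells and 691 CPM in cluster 5. Among the same clusters Hspa5 lay between 264 CPM in cluster 14, which erythroid genes lead, and 451 CPM in hepatocyte cluster 7. Pdia4 was at 105 CPM in hepatocyte cluster 5 and 43.6 CPM in T cells, with 0 UMIs among 105450 in neutrophils. Sel1l was at 129 CPM in cluster 7 and 17.2 CPM in cluster 14. Hyou1 was at 42.6 CPM in cluster 4 and 11.5 CPM in cluster 14, and Manf at 111 CPM in T cells and 18.97 CPM in neutrophils. Ddit3 and Ppp1r15a rested on 8 or fewer UMIs in the class where each was highest, and no order is read from them.

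Between hepatocyte clusters 8 and 2, the sensors Ern1 and Atf6 had the highest ratios of all members with enough UMIs, in both libraries. In cluster 8, Ern1 was at 114 CPM against 12.1 CPM in cluster 2 in the library labelled DKO, a ratio of 9.45 (5.17 to 19.2). In the library labelled WT it was at 127 CPM in cluster 8 and 20.7 CPM in cluster 2, a ratio of 6.13 (3.61 to 11.2). Atf6 followed, with cluster 8 over cluster 2 ratios of 3.84 labelled DKO and 4.18 labelled WT. Sel1l was at 1.96 labelled DKO and 1.88 labelled WT, and Pdia4 at 1.72 labelled DKO and 1.78 labelled WT. Sec61b ran the other way, at 0.57 labelled DKO and 0.46 labelled WT. These members lay on the same side of 1 in both libraries. The clusters were formed over both libraries from these same counts, so this is a description and not a replication. Ern1 and Atf6 also stood higher in cluster 7 than in cluster 2, at 6.85 labelled DKO and 5.62 labelled WT for Ern1, and 3.08 labelled DKO and 3.21 labelled WT for Atf6.

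Clusters 8 and 2 differed in other ways. Cluster 8 had a median of 5461 UMIs per cell and 14.3% mitochondrial UMIs, against 1085.5 UMIs and 0.535% in cluster 2, where Gm42418 took 109269 CPM. Ern1 and Atf6 span 93.2 kb and 163 kb of the genome, and Sec61b spans 8.59 kb. The counting's intron setting is not given in these sources, and the part of unspliced RNA was not tested. Over the members with enough UMIs, the log2 ratio of cluster 8 over cluster 2 correlated with the log10 span at r = 0.56 over 22 members labelled DKO and 0.60 over 20 labelled WT. Without Ern1 and Atf6 these values were 0.18 over 20 members and 0.22 over 18. The rank correlation (Spearman) with all these members was 0.35 labelled DKO and 0.56 labelled WT. Without Ern1 and Atf6 it was 0.13 labelled DKO and 0.40 labelled WT. The points share libraries and depth, so the values describe these members only.

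**Figure D4:**
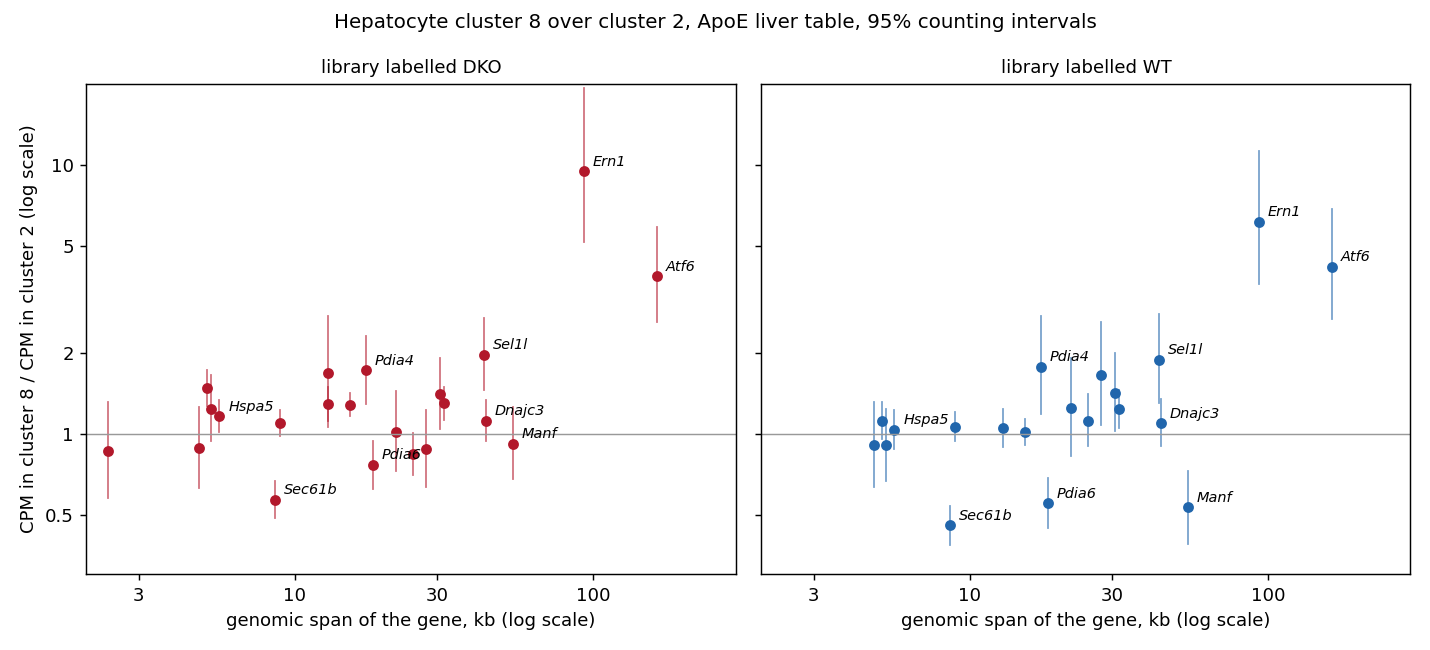
Ratio of CPM in hepatocyte cluster 8 over cluster 2 against the genomic span of each member in kb, both on log axes, in the library labelled DKO (left) and WT (right). Ern1 and Atf6 stand at the upper right in both, and without them r is 0.18 labelled DKO and 0.22 labelled WT. The rank correlation without them is 0.13 labelled DKO and 0.40 labelled WT.

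Clusters 5 and 7, both deep and with similar mitochondrial shares (13.4% and 14.1%), gave a narrower contrast. In cluster 5, Ern1 stood below its level in cluster 7, at ratios of 0.49 (0.37 to 0.65) labelled DKO and 0.53 (0.40 to 0.71) labelled WT. Hspa5 was at 0.75 labelled DKO and 0.77 labelled WT, Hsp90b1 at 0.79 and 0.81 in the same order, and Pdia6 at 0.69 and 0.76. P4hb was at 0.84 labelled DKO and 0.80 labelled WT. Other members lay above 1, at 1.13 labelled DKO and 1.25 labelled WT for Pdia4 and 1.11 labelled DKO and 1.06 labelled WT for Canx. In all, 7 of 22 members with enough UMIs lay above 1 labelled DKO and 8 of 20 labelled WT.

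In aorta, the question was the same contrast in vascular smooth muscle, the contractile cells of the wall. The class of the authors' subtypes VS1, VS2 and VS3 held 1034 cells and 1621698 UMIs labelled DKO, and 636 cells and 1065545 UMIs labelled WT. Of 22 members with at least 100 UMIs, 1 was at least 1.3-fold higher in the library labelled DKO, where 7.85% of all 4331 genes were. Another 2 were at least 1.3-fold lower, where 16.6% of all genes were. Ratios lay above 1 for 12 members and below 1 for 10, and 16 of the 22 intervals included 1. The median log2 ratio was 0.02 over the members and -0.08 over all genes.

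Sel1l was the member above the threshold, with 77.1 CPM in the library labelled DKO and 48.8 CPM in that labelled WT, a ratio of 1.58 (1.13 to 2.23). Pdia3, the isomerase that works with calreticulin on glycoproteins, was lower, with 367.5 CPM labelled DKO and 483 CPM labelled WT (0.760, 0.675 to 0.857). Ppp1r15a was lower too, with 240.5 CPM labelled DKO and 358 CPM labelled WT (0.673, 0.583 to 0.777). The immediate early genes Fos and Jun lay on the same side in these cells, at ratios of 0.723 and 0.787, and their part in the ratio of Ppp1r15a was not tested. Hspa5 had 1005 CPM labelled DKO and 1171 CPM labelled WT (0.858, 0.797 to 0.925). Calr, the partner of Pdia3, went the other way, with 356 CPM labelled DKO and 281 CPM labelled WT (1.27, 1.10 to 1.46). Ern1 had 162 CPM labelled DKO and 201 CPM labelled WT (0.804, 0.669 to 0.968), and Atf6 had a ratio of 0.870. Ratios of the factors were 1.07 for Xbp1, 1.05 for Atf4 and 1.15 for Ddit3, with intervals that included 1. Eif2ak3 was under the minimum, at 21.0 CPM labelled DKO and 18.8 CPM labelled WT. So were 9 other members: Hyou1, Sdf2l1, Creld2, Trib3, Asns, Chac1, Syvn1, Edem1 and Derl3, the last with 0 UMIs in both libraries.

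Gm42418 took 88398 CPM of smooth muscle UMIs in the library labelled DKO and 41688 CPM in that labelled WT. Fibroblast markers (4 genes) summed to 1967 CPM labelled DKO and 2688 CPM labelled WT. With Gm42418, Malat1, AY036118 and mitochondrially encoded genes left out of the total, 3 members were higher (Calr, Pdia6 and Sel1l) and 1 was lower (Ppp1r15a), where 11.4% of all genes were higher and 11.3% lower. The side of a member near the threshold thus moved with the total it was set against.

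Over the 15 aortic subtypes with at least 50 cells of both libraries, Pdia3 lay below 1 in 11 of the 12 where it had enough UMIs, from 0.70 in VS3 to 1.10 in AP1. Calr lay above 1 in 10 of 11 and Hsp90b1 in 11 of 13. Ppp1r15a lay below 1 in 9 of 11, from 0.57 in MP2 to 1.38 in FB1. Hspa5 was split, above 1 in 6 of 14 and below in 8. Subtypes of 1 library share its depth and preparation and are not replicates.

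The summed members differed most in the erythroid subtypes, in opposite directions. ET2 had 699 CPM labelled DKO and 179 CPM labelled WT, a ratio of 3.91 (2.97 to 5.22), and ET1 had 2080 CPM labelled DKO and 3756 CPM labelled WT, a ratio of 0.554 (0.481 to 0.637). In ET2 the smooth muscle markers summed to 3080 CPM labelled DKO and 993 CPM labelled WT, and the fibroblast markers to 575 CPM labelled DKO and 222 CPM labelled WT. Their part in the ratio was not tested. Outside the erythroid subtypes, the ratio ranged from 0.933 in EC1 to 1.25 (1.20 to 1.297) in AP1, where the summed members were at 8978 CPM labelled DKO and 7194 CPM labelled WT. In it Manf had 446 CPM labelled DKO and 182 CPM labelled WT (2.45, 1.98 to 3.06). Hsp90b1 had 1307 CPM labelled DKO and 848 CPM labelled WT (1.54), and Hspa5 had 1652.5 CPM labelled DKO and 1296 CPM labelled WT (1.27). Creld2 had 71 UMIs labelled DKO and 24 labelled WT, or 111 and 35.8 CPM in that order. Pdia6 had 325 CPM labelled DKO and 228 CPM labelled WT, and Xbp1 had 171 CPM labelled DKO and 109 CPM labelled WT. These 6 members were named after their values in AP1 were seen, and others went the other way. Ern1 had a ratio of 0.51 in AP1, its lowest among the subtypes where it had enough UMIs. The sensors summed to 242 CPM labelled DKO and 325 CPM labelled WT. The ATF4 and CHOP targets summed to 524 and 592 CPM in the same order. Sums of the other role groups were higher labelled DKO. The median AP1 cell held 3219 UMIs labelled DKO and 1834 labelled WT.

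With both aortic libraries pooled, AP1 was the subtype with the highest level for 14 of the 32 members, among 18 subtypes of at least 50 cells. Its summed level was 8063 CPM, against 3148 CPM in HS1 and 433 CPM in the erythroid subtype ET2, the lowest for 27 members. No share of all genes highest in AP1 or lowest in ET2 is given here. The counts for AP1 and ET2 are therefore not read as particular to the members. The authors call AP1 adipocytes. The fibroblast markers Dcn (10563 CPM), Col1a1 (3260 CPM) and Lum (2399 CPM) were high in it, while the adipocyte genes Adipoq (3.1 CPM), Plin1 (0) and Cidec (0), chosen after values were seen, were at or near 0. In AP1, Hsp90b1 was at 1072 CPM, Pdia3 at 770 CPM, Ppp1r15a at 543 CPM, Dnajc3, which inhibits PERK and serves as a BiP cochaperone, at 451 CPM, and Manf at 310 CPM.

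The sensors were not highest in AP1. Ern1 was highest in T-cell subtype TC1, at 817 CPM (736 to 904), followed by TC3 at 568 CPM. In TC1 it was at 1091 CPM from 237 UMIs labelled DKO and 572 CPM from 139 UMIs labelled WT. Eif2ak3 was highest in TC3, at 674 CPM (526 to 852), and similar in both libraries, with 712 CPM labelled DKO and 648 CPM labelled WT. Edem1 was highest in the same TC3, at 462 CPM (341 to 613), against 89.1 CPM in TC2, the next. TC3 has 52 cells. Hspa5 was highest in TC2 (1991 CPM) and Atf4 in macrophage subtype MP2 (360 CPM). Ddit3 was at 77.0 CPM in TC3, from 8 UMIs, and 72.6 CPM in VS1. Sdf2l1 was highest in MP1 (87.6 CPM), Atf6 in B cells (172 CPM) and Sel1l in VS1 (70.4 CPM). Intervals of the 2 highest subtypes did not overlap for Ern1, Eif2ak3, Edem1, Hspa5 and Sdf2l1, and overlapped for Atf4, Atf6, Ddit3 and Sel1l.

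**Figure D5:**
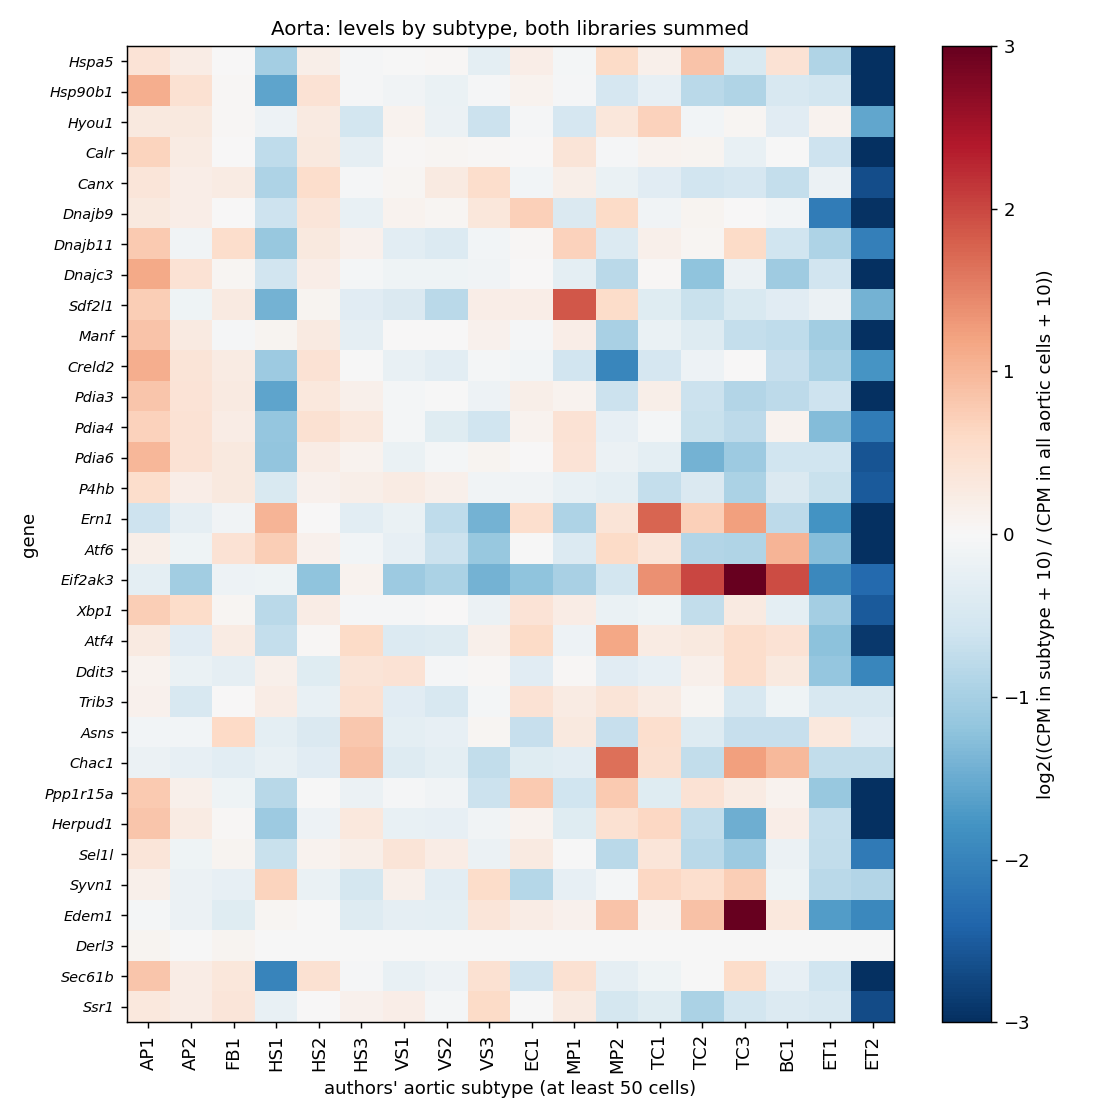
Level of each member (rows) in each aortic subtype (columns), both libraries summed, as the log2 ratio of its CPM plus 10 to its CPM plus 10 in all aortic cells; red is higher, blue lower, and colours saturate at 3 in both directions. Chaperones and isomerases are red in AP1, Eif2ak3 and Edem1 are darkest red in TC3, and ET2 is blue for nearly all members.

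The related lists were also counted in aortic smooth muscle, where 7.85% of all genes were higher and 16.6% lower. As in liver, the counts of these short lists are a description. Of 13 ATF4 targets, 1 was higher (the mitochondrial folate enzyme Mthfd2, 1.60) and 4 were lower, with Ddit4 (0.601) and Cebpb (0.675) the lowest. Nars was at 1.15. Of 10 degradation genes none was higher and 2 were lower, the lectins Erlec1 (0.518) and Os9 (0.665), with March6 (1.12) and Ube2j1 (1.10) at the top. Of 21 translocon genes 2 were higher, Spcs3 (1.70) and Rpn1 (1.32), and 1 lower, Sec62 (0.742), next to Tram1 (0.771). Of 17 folding factors 1 was higher, Hspa13 (1.48), ahead of Txndc11 (1.22), and 3 were lower, with Erp29 and Fkbp2 both at 0.738. Of 7 regulators 1 was higher, Mbtps1 (1.37), the protease that cuts ATF6, ahead of Bax (1.16), and 1 lower, Creb3l1 (0.637), next to Eif2s1 (0.827).

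The last comparison set hepatocytes of the ApoE liver labelled WT (4015 cells, 8769666 UMIs) against those of the liver labelled WT with no background named (261 cells, 900652 UMIs, clusters 3, 4, 8 and 12 of its own clustering). Its clusters 0 and 2 were left out because a marker of another cell type was among their leading genes in an earlier analysis of these data. Cluster 0 (244 cells) had hepatocyte markers at 71036 CPM and cholangiocyte markers at 723 CPM. The kept clusters ranged from 37325 to 72082 CPM and from 97.9 to 337 CPM in the same order. Of the UMIs of the kept clusters, cluster 8 (41 cells) gave 19 of 42 for Ern1 and 35 of 69 for Atf6. Of 24 members with enough UMIs, 6 were at least 1.3-fold higher on the ApoE background, where 24.3% of all 6875 genes were, and 6 were lower, where 26.8% were. The median log2 ratio was -0.01 over the members and -0.02 over all genes. Both shares of the members are near those of all genes.

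Herpud1 had the highest ratio, with 601 CPM on the ApoE background and 268 CPM with no background named (2.25, 1.97 to 2.57). Ern1 had 78.4 CPM on the background and 46.6 CPM in the other liver (1.68, 1.23 to 2.36). Canx had 392 CPM on the background and 295 CPM in the other liver (1.33). Hsp90b1 had 760 CPM on it and 580 CPM in the other liver (1.31, 1.20 to 1.44). Hyou1 had 28.7 CPM on the background and 17.8 CPM in the other liver (1.62, 0.977 to 2.87). Dnajb9 had 78.4 CPM on it and 60.0 CPM in the other liver (1.31, 0.991 to 1.76). The intervals of Hyou1 and Dnajb9 included 1.

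On the low side, Manf had 86.6 CPM on the ApoE background and 211 CPM with no background named (0.410, 0.350 to 0.484). Within the liver with no background named, Manf was at 358 CPM in cluster 3 and 127 CPM in cluster 4. Sec61b had 272 CPM on the background and 550 CPM in the other liver (0.494, 0.448 to 0.546). Xbp1 had 103 CPM on the background and 143 CPM in the other liver (0.720, 0.598 to 0.872). Edem1 had 94.1 CPM on it and 127 CPM in the other liver (0.743, 0.610 to 0.912). Creld2 had 11.3 CPM on the background and 18.9 CPM in the other liver (0.598, 0.355 to 1.07). Sdf2l1 had 15.3 CPM on it and 19.99 CPM in the other liver (0.764, 0.466 to 1.33). Hspa5 had 364 CPM on the background and 411 CPM in the other liver (0.886, 0.796 to 0.990). Ratios were 1.15 for Atf6 and 0.825 for Atf4, and Eif2ak3 and Ddit3 were under the minimum. With all cells the authors call hepatocytes in both tables, the counts were again 6 higher and 6 lower, but with other members. The ratio of Edem1 was then 0.976, that of Sdf2l1 0.469, that of Atf6 1.76 and that of Sel1l 1.597.

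Markers of other cell types differed between these hepatocytes. On the ApoE background the cholangiocyte list (5 genes) summed to 4.22 CPM, against 239 CPM with no background named. The Kupffer cell list (7 genes) summed to 5.25 CPM on it, against 168 CPM in the other liver. The acinar genes found in both tables (7 of 8) were at 96.6 CPM on the background and 5.55 CPM in the other liver. Fos had a ratio of 0.561. These were separate tables with separate clusterings, and background, tissue processing and cell selection cannot be told apart. Of the ATF4 targets, the stress cytokine Gdf15 had the lowest ratio, with 17.4 CPM on the ApoE background and 183 CPM in the other liver (0.0952). Atf3 followed at 0.479, while Cebpb was at 1.79 and Vldlr at 1.36. The counts of the lists stand beside 24.3% of all genes higher and 26.8% lower in this comparison, and are a description. Of 15 ATF4 targets 3 were higher and 5 lower. Of 21 translocon genes 3 were higher (Spcs3 at 1.62 and Tram1 at 1.47 the highest) and 9 lower (Ostc at 0.422 and Ddost at 0.435 the lowest). Of 22 folding factors 2 were higher (Dnajc10 at 1.44, Ero1lb at 1.40) and 6 lower (Fkbp11 at 0.253 and Tmx2 at 0.631 the lowest). Of 19 degradation genes 3 were higher (March6 at 1.70 and Os9 at 1.58 the highest) and 4 lower (Erlin1 at 0.641 and Selenok at 0.722 the lowest). Of 13 regulators 1 was higher (Eif2ak1 at 1.998, ahead of Ppp1r15b at 1.29) and 4 were lower (Bax at 0.453 and Rtcb at 0.532 the lowest).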

How the data were processed

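Cell Ranger 7.1.0 and the build mm10 are named, per the submitters' processing notes. Whether intron reads were counted is not stated there. The authors deposited raw UMI counts per gene and cell in 3 tables (ApoE liver, aorta, and liver with no background named), each with cell metadata that supplied the cell types, subtypes and clusters. Not used were 27 other metadata columns of each table. Counts were summed over the cells of a library and class and divided by all UMIs of that class (CPM), with exact Poisson intervals. Ratios have exact conditional binomial intervals. There is no test, since each group is 1 library.

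The hepatocyte class was clusters 0 to 8 and 13 of the ApoE liver table, without the authors' hepatocyte clusters 14, 16 and 18, which erythroid, acinar and cholangiocyte genes lead. Classes had at least 50 cells. Members and lists were chosen with earlier results of these data known. Named were members past 1.3-fold, the sensors, Atf4, Ddit3, Xbp1 and Hspa5, and for each related list the 2 highest and 2 lowest genes with at least 100 UMIs. Other members named are examples chosen after their values were seen. Genes were matched to RefSeq promoter windows of GRCm38.p6 by symbol (29 of 32; Hyou1, Manf and Atf6 had none). No doublet caller was run. Intervals were run on simulated counts drawn with counting error only, so that run says nothing of variation between cells or libraries. Alternatives were another total, scaling by the median ratio, equal weight per cell, a gene filter on cells, no count minimum, an equal mix of clusters, a 1.5-fold threshold and other sets of clusters. Python 3.11.15, numpy 2.4.6, pandas 2.3.3, scipy 1.17.1 and matplotlib 3.10.9 were used.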

Additional observations from a re-analysis of the deposited data

Results flagged for a closer look

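Ppp1r15a stood on opposite sides of 1 in the 2 tissues. The DKO/WT ratio was 1.47 (1.002 to 2.17) in liver hepatocytes, from 72 UMIs labelled DKO and 47 labelled WT. It was 0.673 (0.583 to 0.777) in aortic smooth muscle, from 390 UMIs labelled DKO and 381 labelled WT. Fos and Jun lay on the same side as Ppp1r15a in each tissue, at 1.18 and 1.29 in liver and 0.723 and 0.787 in aorta, and their part in it was not tested. It was the only member past 1.3-fold in both tissues in opposite directions. With 1 library per group the difference between the tissues was not tested.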

How the results depend on the processing

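No paired analysis was possible because each group has 1 library. No member past the threshold changed sides under any alternative run. Pdia4 and Hyou1 stayed at least 1.3-fold higher in liver hepatocytes labelled DKO under each. In liver, 2 members were higher at 1.5-fold. There was 1 lower member with cells weighted alike (Manf), 1 with no count minimum (Chac1) and 2 with the mix of clusters held equal (Manf and Syvn1). In aorta, higher members numbered 3 with the other total, 3 after scaling by the median ratio, 2 with cells weighted alike, 4 with no count minimum, 2 with the mix held equal and 2 in VS1 alone. Lower members numbered 1 with the other total, 1 after scaling, 4 with cells weighted alike and 0 at 1.5-fold. With all cells the authors call hepatocytes, the lower members between the livers labelled WT included Pdia6 but not Edem1. Between these livers, higher members numbered 2 with cells weighted alike and 3 at 1.5-fold, and lower members 10 with no count minimum and 3 at 1.5-fold. The cause of these moves was not tested, save that a stricter fold or no minimum changes which genes can be counted. Where another total was used in liver, 6 members were higher (Dnajb11 and P4hb in addition) and 0 lower, and 12.6% of all genes were higher and 5.16% lower, against 8.1% and 8.04%. In clusters 5, 7 and 8 alone, Manf was at 0.948, Pdia6 at 1.15 and Hspa5 at 1.29. The equal mix of clusters was not run between the livers labelled WT, whose clusterings are separate. Genes of few UMIs, such as Eif2ak3 and Ddit3 in hepatocytes, have intervals too wide to place them. The interval of Ppp1r15a in hepatocytes was also wide (1.002 to 2.17). Its lower limit lay close to 1, so its call as higher there is not firm.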
